A study of Homo sapiens with 36 samples.

Results

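HMC3 cells that had been exposed to 50 µM perfluorooctane sulfonate (PFOS) and then kept without it were compared with HMC3 cells that had received vehicle on the same schedule. HMC3 is an established human cell line that the labels call microglial, and PFOS is a persistent fluorinated surfactant. Both groups were treated for 24 h and then cultured for a further 24 h in fresh medium free of PFOS. The comparison rests on 6 RNA-seq libraries of the 36 samples in the series, 3 from 50 µM PFOS and 3 from vehicle, chosen by their column names in the count table; all genes in the table were considered. Cells collected directly after 24 h of 50 µM PFOS or vehicle (3 libraries each) served for a comparison between the times. The labels call the libraries biological replicates without saying whether they came from separate cultures, so the tests measure spread between libraries, which may be technical.

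After PFOS withdrawal a cell can return to its earlier expression state, keep part of the exposure response, or enter another state. Cytosolic ribosomal protein genes encode the protein part of the ribosome, and their mRNAs are among the shortest and most abundant of a cell. Many of them begin with a run of pyrimidines, the terminal oligopyrimidine tract, through which mTORC1 and LARP1 set their translation and stability. Metallothioneins bind zinc and copper and are induced through the metal-responsive factor MTF1. NRF2 drives antioxidant and iron-storage genes, and ATF4 drives the integrated stress response, which supplies amino acids and can end in CHOP-dependent death.

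The 3 dosed libraries did not look alike. They held 841252, 1228047 and 755905 counts, against 1319266, 3982818 and 2151038 in vehicle. Pearson correlations of log2 CPM (counts scaled to library size) across genes were 0.850 between dosed libraries 1 and 2, 0.938 between 1 and 3 and 0.916 between 2 and 3, while every other pair of replicates among the 18 RNA-seq libraries reached at least 0.951. Per tested gene, the median range of log2 CPM was 0.80 among the dosed libraries and 0.45 among the vehicle libraries. Ribosomal protein genes (83 in the table) took 3.00%, 7.76% and 5.14% of the counts in dosed libraries 1, 2 and 3, against 1.56%, 2.06% and 1.43% in vehicle. Dosed library 2 was thus the highest and library 1 the lowest of the dosed libraries, and the groups did not overlap. The means were 5.30 ± 2.38% and 1.68 ± 0.33% (SD, n = 3 each). A two-sided exact permutation test gave p = 0.10, the smallest value that 3 against 3 allow.

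**Figure D1:**
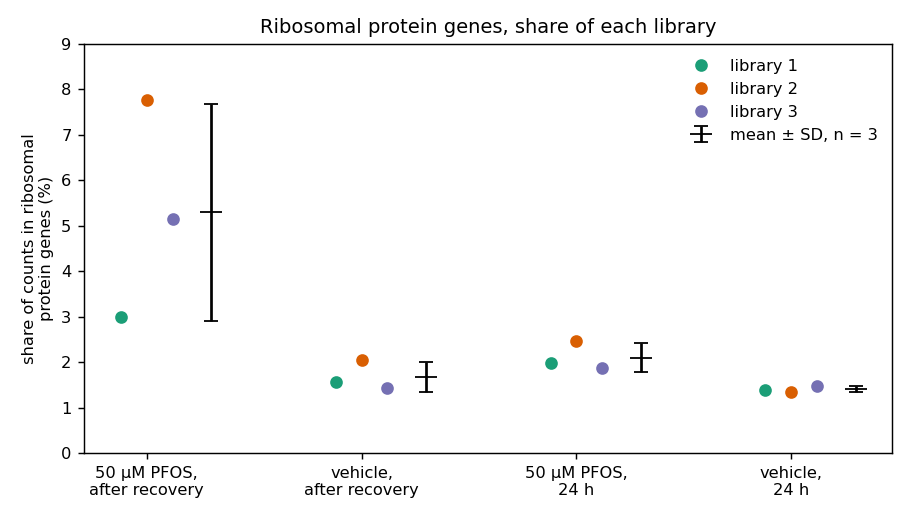
Share of all counts, in percent, that fell in ribosomal protein genes, for each library (points, coloured by replicate number) with mean and SD of 3 libraries. After recovery the 50 µM PFOS libraries lie at 3.00%, 7.76% and 5.14%, above all vehicle libraries and above the 50 µM PFOS libraries at 24 h (1.98%, 2.46% and 1.87%).

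Markers did not show microglial identity in either group. Of 22 microglial and myeloid markers, 13 had no count in any of the 6 libraries, among them AIF1, CX3CR1, TMEM119, TYROBP and SPI1. Some markers of fibroblasts and pericytes were abundant, led by COL1A1. The list summed to 1917, 566 and 1457 CPM in the dosed libraries, against 3176, 2593 and 2327 CPM in vehicle. Its members COL3A1 and DCN had no count in these libraries. S100A4 went the other way, at 3.42, 20.6 and 9.30 CPM, against 0.759, 2.37 and 0.449 CPM in vehicle. Epithelial and endothelial markers, mostly KRT18, summed to 1020, 1057 and 1249 CPM in the dosed libraries, against 580, 576 and 531 CPM in vehicle. Lymphocyte markers summed to at most 7.97 CPM in any of these libraries. In bulk RNA, fewer cells of a type and less RNA per cell cannot be told apart.

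More genes were called higher than lower after recovery from 50 µM PFOS. A gene is called here when its p-value from edgeR's quasi-likelihood test, adjusted by Benjamini-Hochberg over the 8945 genes tested, lies under 0.05. By this rule 648 genes were higher (7.24% of those tested) and 99 were lower (1.11%), of which 624 and 83 changed at least 2-fold. The libraries of the groups did not overlap for 1509 higher genes (16.9%) and 1521 lower genes (17.0%), which shows that genes below vehicle in every library were about as common as genes above it. The median log2 change of all tested genes was -0.10. The lowest adjusted p was 0.0254, shared by many genes, so the number of calls was close to the limit of the design. No gene passed without vehicle library 1, 2 or 3 or without dosed library 3, where the lowest adjusted p was 0.134, 0.0836, 0.169 and 0.104 and 1599, 1913, 1768 and 1772 genes had an unadjusted p under 0.05. Without dosed library 1 there were 2441 calls, and without dosed library 2 there were 736. These limits hold for each call given below, and the direction of the changes is therefore also given per library. Counts in each list below are to be read against the shares of all tested genes given here.

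Most genes called higher followed 1 order among the dosed libraries, while genes called lower were more mixed. Of the 648 genes called higher, 583 (90.0%) were highest in dosed library 2, next in library 3 and lowest in library 1, an order seen in 29.6% of all tested genes. Among the 99 genes called lower, 46 (46.5%) were lowest in library 2 and highest in library 1, against 29.2% of all tested genes. The order 2, 3, 1 was also that of the share of ribosomal protein counts. When that share was entered as a covariate in a fit of all 18 RNA-seq libraries, an alternative chosen after the data had been seen, 37 genes were called, 22 higher and 15 lower, and 15 of them were among the 747. The 747 came from 6 libraries, so the like comparison is the fit of 18 without the covariate, which called 2913 genes. The share was 3.00% to 7.76% in the dosed recovery libraries and at most 2.46% in the other RNA-seq libraries. The covariate thus overlaps with the group tested. A call lost with it, here or below, does not show that a change was absent.

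**Figure D2:**
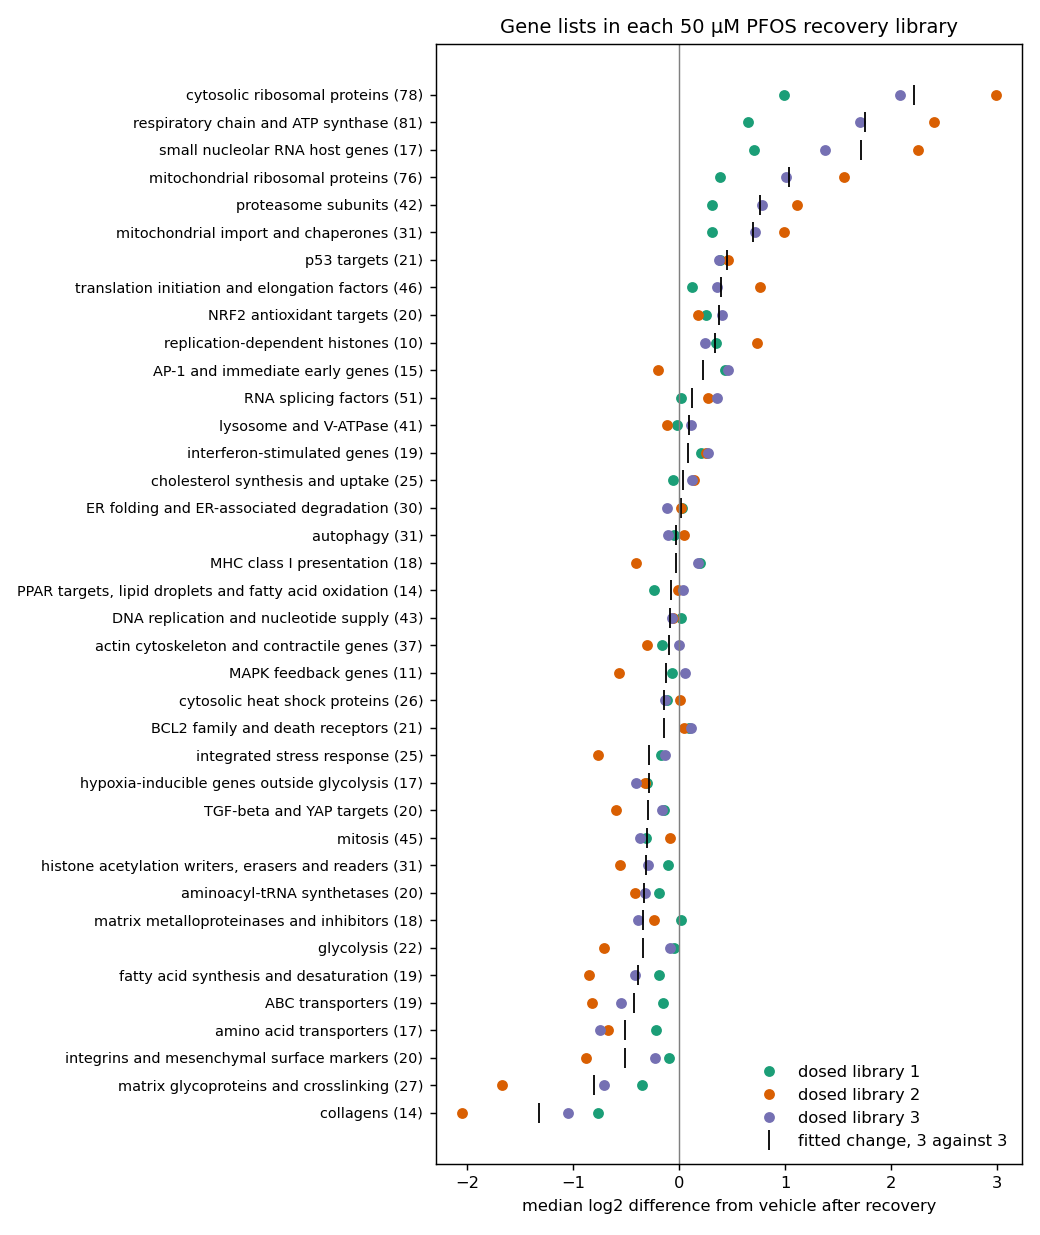
Median log2 difference from vehicle after recovery for lists with at least 10 tested genes (number in brackets), in each 50 µM PFOS library (points) and in the fit of 3 against 3 (bars). Ribosomal, respiratory chain and small nucleolar RNA host genes lie to the right in all 3 libraries and collagens to the left, with dosed library 2 at the outer end.

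Genes of the cytosolic ribosome rose as a group. Of 78 ribosomal protein genes tested, 70 rose and 0 fell, with a median log2 change of 2.22, against -0.10 for all tested genes. The median was 0.99, 2.98 and 2.08 in dosed libraries 1, 2 and 3. In every dosed library 72 of the genes were above vehicle, against 16.9% of all tested genes. RPL37A, a protein of the large subunit (chromosome 2: 216498844-216504086, GRCh38.p14), had 220, 1123 and 547 CPM in the dosed libraries, against 66.1, 106 and 70.1 CPM in vehicle. Its lowest dosed value was above the highest vehicle value, so the groups were apart despite their spread. The log2 change was 2.96 ± 0.52 (SE; edgeR adjusted p = 0.0254). RPS19, a protein of the small subunit (chromosome 19: 41860255-41872925), had 565, 2143 and 1221 CPM, against 175, 247 and 150 CPM in vehicle. FAU, which encodes a ubiquitin-like protein fused to RPS30, had 267, 814 and 448 CPM, against 85.1, 114 and 71.9 CPM in vehicle. RPS29, of the small subunit, rose by 3.01 ± 0.56 and RPL35, of the large subunit, by 2.39 ± 0.38 on the log2 scale. Leaving out each library in turn kept the list's median between 1.66 and 2.60, but the number of calls fell to 0 without any 1 of the vehicle libraries or dosed library 3. It was also 0 with the ribosomal share as a covariate, which was made from these genes.

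Several RNAs that share the oligopyrimidine start with ribosomal proteins are printed here, because ribosomal protein genes made up the list with the most calls. Each window runs from 25 bases before to 15 bases after the first transcribed base of the RefSeq annotation on GRCh38.p14, and capitals mark the run of pyrimidines at the start.
RPL37A, chr2:216498819-216498858, plus strand: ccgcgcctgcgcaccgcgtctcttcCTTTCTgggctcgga
RPS19, chr19:41860230-41860269, plus strand: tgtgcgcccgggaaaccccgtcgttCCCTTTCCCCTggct
FAU, chr11:65122120-65122159, minus strand: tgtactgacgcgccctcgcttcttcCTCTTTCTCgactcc
EIF3K, chr19:38619163-38619202, plus strand: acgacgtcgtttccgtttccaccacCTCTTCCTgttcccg
SNHG5, chr6:85678719-85678758, minus strand: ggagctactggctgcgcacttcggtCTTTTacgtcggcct
ZFAS1, chr20:49278617-49278656, plus strand: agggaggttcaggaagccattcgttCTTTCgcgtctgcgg

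The pattern searched was a C at the annotated first base followed by at least 4 bases that are C or T, on the transcribed strand; it was chosen after the changes had been seen. Of the tested genes 7434 (83.1%) had a window, and where RefSeq lists several starts the first was used. The pattern stood at the start of 41 of 63 ribosomal protein genes (65.1%), 5 of 15 small nucleolar RNA host genes (33.3%), 13 of 37 translation factors (35.1%) and 424 of all 7434 genes (5.70%), and in 4.04% of all 27305 RefSeq windows. Among ribosomal protein genes, 38 of 41 with the pattern were called higher (median 2.38), as were 19 of 22 without it (median 2.04). Among the 13 translation factors with the pattern, 6 rose: EIF3K, TPT1, BTF3, NACA, EIF4A2 and EIF3F. EEF1A1 (0.46), EEF2 (-0.50) and EIF4B (0.06), also with the pattern, were not called. Outside ribosomal protein, translation factor and host genes, 35 of 365 genes with the pattern were called higher (9.59%), against 6.27% of the 6954 without it.

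Mitochondrial genes encoded in the nucleus moved with the ribosome. Subunits of the respiratory chain and ATP synthase had 52 of 81 genes higher and 0 lower, with a median of 1.75 (0.65, 2.40 and 1.70 in dosed libraries 1, 2 and 3). ATP5I, the e subunit of ATP synthase, had 67.3, 253 and 167 CPM in the dosed libraries, against 21.3, 32.6 and 19.8 CPM in vehicle. COX7A2, a subunit of cytochrome c oxidase, had 76.4, 305 and 211 CPM, against 31.1, 40.2 and 35.0 CPM in vehicle. Dosed libraries were above vehicle for both genes, library 1 by the least. Log2 changes were 2.71 ± 0.45 for ATP5I and 2.47 ± 0.44 for COX7A2 (SE; edgeR adjusted p = 0.0254 for both). UQCR10, of complex III, rose by 2.20 ± 0.40.

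Mitochondrial ribosomal proteins had 29 of 76 genes higher and 0 lower, with a median of 1.03. MRPL41, of the large mitochondrial subunit, had 42.2, 111 and 86.3 CPM, against 10.6, 20.2 and 13.5 CPM in vehicle. Mitochondrial import and chaperone genes had 9 of 31 higher and 0 lower (median 0.70). They were led by the small translocase subunits TOMM7 (3.07 ± 0.48), TOMM6 (2.20 ± 0.38) and TOMM5 (2.18 ± 0.44) and by the chaperonin HSPE1 (2.72 ± 0.56). BOLA3 and PET100, which help to mature iron-sulfur proteins and cytochrome c oxidase, rose by 3.07 ± 0.58 and 2.97 ± 0.60. Left out in turn, the libraries kept the medians of the respiratory chain list between 1.25 and 2.13 and of the mitochondrial ribosomal list between 0.71 and 1.30, and the calls were lost as for the ribosomal proteins.

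Host genes of small nucleolar RNAs rose as a group. Their introns release guides for ribosomal RNA modification, and the list had 13 of 17 genes higher and 0 lower (median 1.71). SNHG5 (chromosome 6: 85677007-85678733) had 69.6, 441 and 163 CPM in the dosed libraries, against 14.4, 23.7 and 22.5 CPM in vehicle, and rose by 3.45 ± 0.59 (SE; edgeR adjusted p = 0.0254). ZFAS1 had 53.6, 319 and 173 CPM, against 23.5, 29.7 and 27 CPM in vehicle. For both RNAs library 2 was several-fold above library 1, which still exceeded all vehicle libraries.

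Proteasome genes had 12 of 42 higher and 0 lower (median 0.76), among them the catalytic subunit PSMB5 at 1.18 ± 0.25 and the assembly chaperone PSMG4 at 2.57 ± 0.42. Translation factors had 11 of 46 higher (median 0.39), with EIF3K at 1.88 ± 0.33, EIF6 at 1.28 ± 0.23 and BTF3 at 1.57 ± 0.33. Splicing factors had 9 of 51 higher (median 0.12); the named ones, SNRPF (2.68 ± 0.49), SNRPE (1.98 ± 0.43), SNRPD2 (1.92 ± 0.43) and SNRPB (1.25 ± 0.28), are small Sm core proteins of the spliceosome. Other genes with large increases were S100A6, a calcium-binding protein, at 3.09 ± 0.51 and TMSB10, an actin-sequestering peptide, at 2.43 ± 0.43. None of these lists had a gene called lower, and the calls in them were lost without any 1 of the vehicle libraries or dosed library 3.

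The genes that rose were short. The median genomic span, from the first to the last annotated base, was 7509.5 bp for genes called higher, 98765 bp for genes called lower and 32175.5 bp for the tested genes with a position. Across 8892 genes the Spearman correlation between span and log2 change was -0.33, and it was -0.31, -0.23 and -0.38 in dosed libraries 1, 2 and 3; genes are not independent replicates. In the shortest decile of genes (90 to 6015 bp) the median log2 change was 0.60 and 266 of 890 were called higher. Without the ribosomal protein genes it was 220 of 840. In the longest decile the median was -0.35, with 11 genes called higher and 38 lower. With the trend over span removed, 424 genes were called, 360 higher and 64 lower, and 382 of them were among the 747. In that fit 55 ribosomal protein genes rose with a median of 1.62, and 30 respiratory chain genes with a median of 1.49. Other lists had fewer calls there: 12 mitochondrial ribosomal genes were called higher (against 29), 7 host genes (against 13), 5 translation factors (against 11), 5 mitochondrial import genes (against 9), 3 proteasome genes (against 12) and 2 splicing factors (against 9). The actin list had 1 gene higher and 3 lower in that fit, and the interferon, MHC class I and autophagy lists, with 2 calls each before, had 0. Of the collagens 4 were called lower, against 5, and of the matrix glycoproteins 1, against 3. The median of the histone list was -0.80 in that fit, against 0.34 without the removal. Transcript length and RNA integrity are not in the files used here, and their part in the result was not tested.

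**Figure D3:**
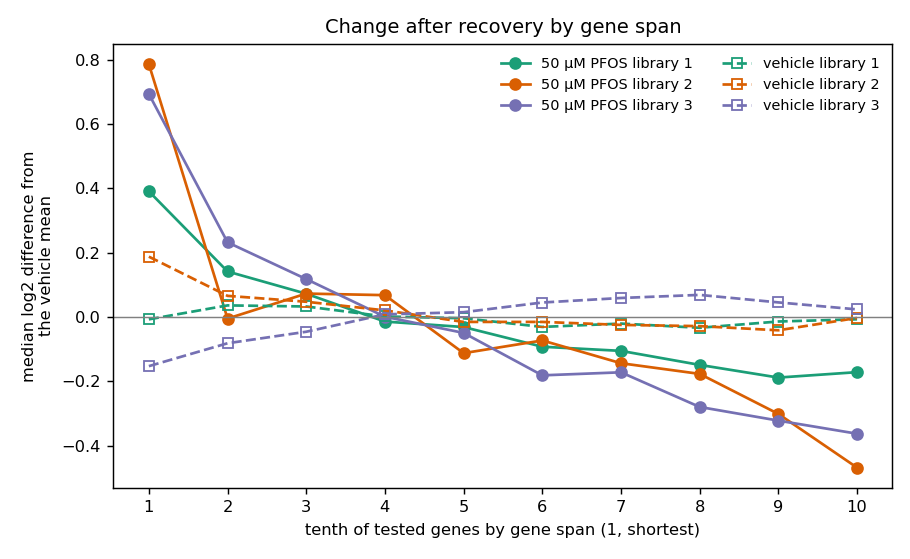
Median log2 difference from the mean of the vehicle libraries after recovery, by decile of genomic span over the tested genes, for each 50 µM PFOS library (filled circles) and each vehicle library (open squares). All 3 dosed libraries run from above 0 in the shortest decile (0.39, 0.79 and 0.69) to below 0 in the longest (-0.17, -0.47 and -0.36), while vehicle libraries stay between -0.15 and 0.19.

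Dosed library 2 also differed from the others by base composition around the gene start. In the decile of genes with the most G and C in the 300 bases around the start (median 79.0%), the median difference from vehicle was -0.05, -0.59 and -0.23 in dosed libraries 1, 2 and 3, and in the decile with the least (median 48.0%) it was -0.01, 0.03 and -0.02. Among genes averaging at least 20 CPM in the dosed libraries, those with the largest range were VPS18, PLBD2, MED16, CHPF, PNPLA6 and CHERP, and dosed library 2 was the lowest for each. PLBD2, a lysosomal hydrolase-like protein, had 178, 12 and 110 CPM in the dosed libraries, against 223, 214 and 171 CPM in vehicle. VPS18, a subunit of the endosome-tethering complexes HOPS and CORVET, had 41.1, 1.71 and 23.9 CPM, against 52.4, 36.8 and 49.9 CPM in vehicle. MED16, of the Mediator complex, had 94.7, 6 and 57.1 CPM, against 153, 72.6 and 87.6 CPM in vehicle. For these 3 genes library 1 was the highest and library 3 the middle of the dosed libraries, and none of the 6 was called.

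Metallothionein genes were among the strongest increases. MT2A, the main human metallothionein (chromosome 16: 56608584-56609497), had 132, 557 and 286 CPM in the dosed libraries, against 28.1, 36.5 and 25.6 CPM in vehicle. Every dosed library exceeded every vehicle library. The log2 change was 3.42 ± 0.48 (SE; edgeR adjusted p = 0.0254). MT1E had 9.13, 48.0 and 15.9 CPM, against 1.52, 3.94 and 1.35 CPM in vehicle, on few counts. The list, which also covers zinc export, had 3 tested genes, 2 called higher and 0 lower. Its remaining gene went the other way, at -0.92 on the log2 scale. In the fit of all 18 libraries 1 gene of the list was called lower. Reads can be divided among the near-identical metallothionein genes in ways the files do not show.

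The MT2A promoter window is shown because MTF1 acts through metal response elements there. It covers chr16:56608414-56608593 on the plus strand (RefSeq, GRCh38.p14) and capitals mark matches to TGCGCNC, read on both strands. Forms of the element with A in place of the second G were not searched. TGCACTC, which also stands in this window, is therefore neither marked nor counted, and the share given below leaves such forms out.
MT2A: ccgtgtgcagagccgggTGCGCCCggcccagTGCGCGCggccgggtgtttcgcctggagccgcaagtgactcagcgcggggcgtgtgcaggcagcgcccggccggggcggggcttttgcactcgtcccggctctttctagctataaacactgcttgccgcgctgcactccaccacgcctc

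This pattern had 2 matches in the 300-base MT2A window and at least 1 match in 19.97% of all 27305 RefSeq windows, so a match alone is common. The other patterns searched were TGATGNAAN (ATF4 composite element), TGACNNNGC (antioxidant response element), TCACNCCAC (sterol response element), TGANTCA (AP-1) and CCAAT. The MT2A window held 1 match to TGACNNNGC and 1 to TGANTCA, and these overlap in the same bases, tgactcagc. The patterns were present in 3.67%, 13.6%, 1.15%, 7.76% and 35.7% of all windows on either strand.

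Of 20 tested NRF2 targets, 5 were called higher and 0 lower, with a median of 0.37, or 0.27 to 0.41 when libraries were left out in turn. NQO1, a quinone reductase (chromosome 16: 69709401-69726560), had 275, 409 and 333 CPM in the dosed libraries, against 75.2, 101 and 85.3 CPM in vehicle. Its dosed libraries differed by less than for the ribosomal genes and stood well above vehicle. It rose by 1.96 ± 0.24 (SE; edgeR adjusted p = 0.0254). FTL, the ferritin light chain, had 4262, 9653 and 6892 CPM, against 1134, 1490 and 1088 CPM in vehicle. FTH1, the ferritin heavy chain, rose by 1.74 ± 0.26, and TALDO1, of the pentose phosphate pathway, by 1.07 ± 0.25. With the ribosomal share as a covariate NQO1 (1.22; edgeR adjusted p = 0.0154) and FTL (1.09; adjusted p = 0.0131) remained called, while MT2A (1.13; adjusted p = 0.094) did not.

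**Figure D4:**
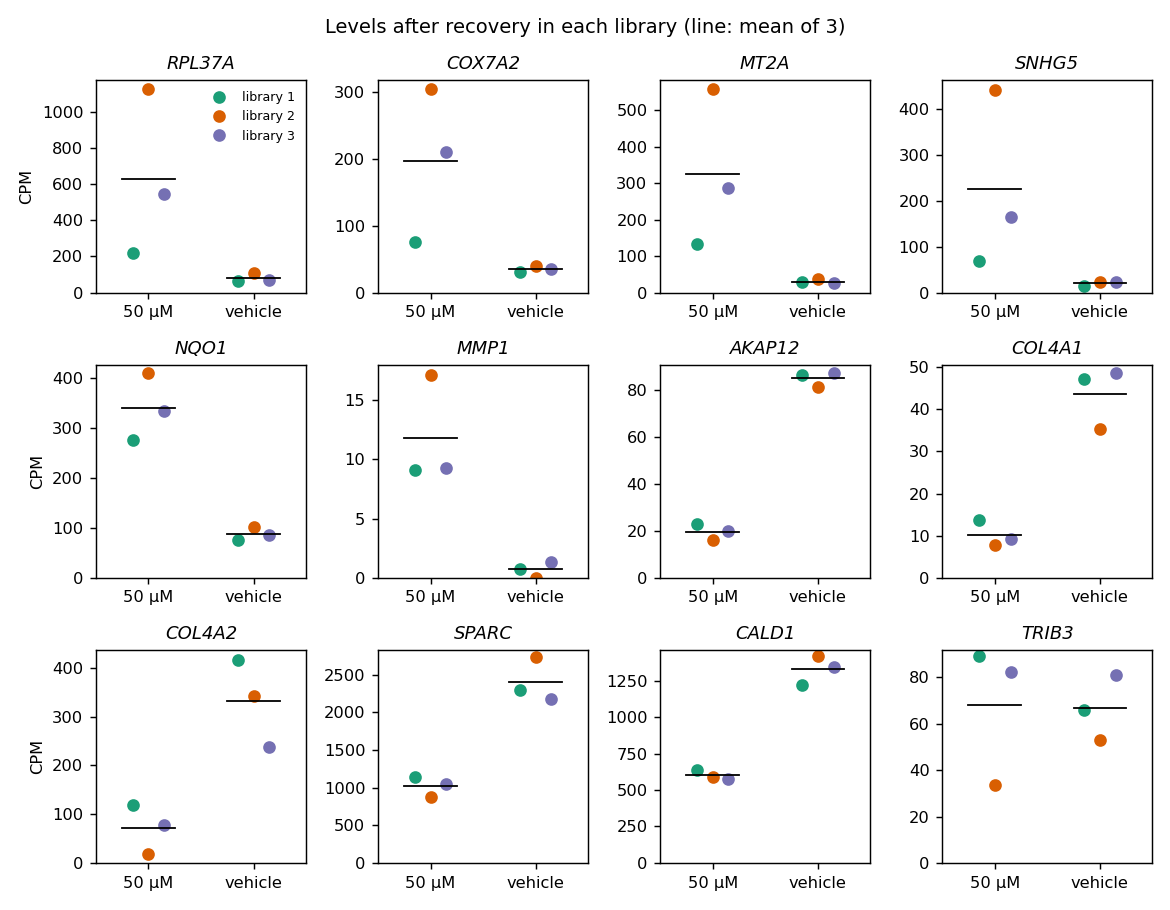
Levels of 12 genes in CPM after recovery, for each 50 µM PFOS library (left of each panel) and each vehicle library (right), coloured by replicate number, with the mean of 3 as a line. RPL37A, COX7A2, MT2A and SNHG5 spread widely among the dosed libraries with library 2 highest, NQO1, AKAP12, SPARC and CALD1 are closer together, and TRIB3 overlaps with vehicle.

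Genes of the extracellular matrix were lower. Collagens had 5 of 14 genes lower and 0 higher, with a median of -1.32 (-0.77, -2.04 and -1.05 in dosed libraries 1, 2 and 3). Of the 14, 9 were below vehicle in every dosed library, against 17.0% of all tested genes. COL4A1, a chain of basement membrane collagen (chromosome 13: 110148963-110307157), had 13.7, 7.71 and 9.30 CPM in the dosed libraries, against 47.1, 35.2 and 48.5 CPM in vehicle. COL4A2, its neighbour and partner chain, had 120, 18 and 78.4 CPM, against 417, 343 and 237 CPM in vehicle. Both genes were below vehicle in each dosed library, with library 2 the lowest. Their log2 changes were -2.09 ± 0.33 and -2.22 ± 0.53 (SE; edgeR adjusted p = 0.0254 and 0.0356). COL5A1, COL5A2 and COL8A1 fell by 1.68 ± 0.40, 1.52 ± 0.30 and 1.28 ± 0.28. COL1A1, the main chain of type I collagen, had 933, 131 and 598 CPM, against 1937, 1414 and 1256 CPM in vehicle, and was not called (-1.47 ± 0.54; edgeR adjusted p = 0.125). The list's median lay between -1.51 and -0.91 when libraries were left out in turn. In the fit of all 18 libraries 11 of 16 collagens were called lower (median -1.29). With the ribosomal share as a covariate in that fit 0 were called (median -0.35). Fibroblast and pericyte markers, of which COL1A1 is one, moved the same way in part, and their part in the result was not tested. Of 7 tested, 4 were below vehicle in every dosed library, against 17.0% of all tested genes.

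Matrix glycoproteins had 3 of 27 genes lower and 0 higher (median -0.80). In the fit of all 18 libraries 17 of 29 were called lower (median -0.81). With the ribosomal share as a covariate in that fit 1 was called higher and 1 lower (median 0.07). SPARC, a collagen-binding matrix protein (chromosome 5: 151661096-151686915), had 1143, 883 and 1051 CPM, against 2298, 2737 and 2174 CPM in vehicle. The dosed libraries were close together and all below vehicle, and the log2 change was -1.23 ± 0.21 (SE; edgeR adjusted p = 0.0254). The fibrillins FBN1 and FBN2, which build elastic microfibrils, fell by 1.17 ± 0.30 and 1.24 ± 0.29. TGFB2, a ligand that induces matrix genes, had 225, 96.0 and 153 CPM, against 446, 417 and 458 CPM in vehicle.

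Matrix proteases and their inhibitors went the other way in part, with 3 of 18 genes higher and 1 lower. MMP1, the interstitial collagenase (chromosome 11: 102789919-102798160), had 9.13, 17.1 and 9.30 CPM, against 0.759, 0 and 1.35 CPM in vehicle, where it rested on a handful of reads. It had the largest log2 change after recovery among the named genes, 4.27 ± 0.73 (SE; edgeR adjusted p = 0.0254), which ranged from 3.33 to 5.44 when libraries were left out in turn. TIMP1, an inhibitor of matrix proteases, rose by 1.46 ± 0.30, and PLAUR, the urokinase receptor, by 1.12 ± 0.26. ADAM19 fell by 1.51 ± 0.35.

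Actin and contractile genes split by member. CALD1, the actin-binding protein caldesmon (chromosome 7: 134711499-134970729), had 638, 590 and 573 CPM, against 1223, 1419 and 1347 CPM in vehicle, one of the narrowest ranges among the dosed libraries of any called gene. It fell by 1.15 ± 0.20 (SE; edgeR adjusted p = 0.0254), and ACTG2, a smooth muscle actin, by 2.72 ± 0.46. TMSB10 and MYL12B, a myosin light chain, rose by 2.43 ± 0.43 and 1.45 ± 0.36. Of the 37 genes 5 were called higher and 2 lower, against 7.24% and 1.11% of all tested genes. Below vehicle in every dosed library were 14, against 17.0% of all tested genes, and above it were 7, against 16.9%. AKAP12, a scaffold for protein kinase A (chromosome 6: 151239967-151358559), had 22.8, 16.3 and 19.9 CPM, against 86.6, 81.2 and 87.1 CPM in vehicle. Its groups were tight and far apart, with a log2 change of -2.12 ± 0.25.

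Among the named genes the largest decrease was that of SEMA5A, an axon guidance protein, at 2.28, 0.857 and 3.99 CPM, against 18.2, 20.5 and 20.7 CPM in vehicle (-3.15 ± 0.47). ABCB1, the drug efflux pump P-glycoprotein, had 16.0, 14.6 and 19.9 CPM, against 52.4, 50.0 and 58.4 CPM in vehicle, and fell by 1.68 ± 0.27 (SE; edgeR adjusted p = 0.0254). Surface genes moved both ways: NT5E, the ecto-enzyme CD73, rose by 1.35 ± 0.24 and ITGB1, the common integrin beta chain, fell by 0.75 ± 0.20. CD68, a lysosomal glycoprotein, had 58.2, 46.3 and 51.8 CPM, against 26.6, 19.2 and 15.3 CPM in vehicle. It was the only called gene of the microglial list. All 109 called genes named by the rule were also called in the fit of 18 libraries without a covariate. With the ribosomal share as a covariate in that fit 8 of the 109 remained called: NQO1, FTL, SPARC, CALD1, ACTG2, NT5E, CD68 and the keratin KRT18. Since the covariate overlaps with the dosed group, the rest are not shown to be unchanged.

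Few genes of the cell cycle and of cell death were called. Among all tested genes 7.24% were called higher and 1.11% lower. Mitosis genes had 2 of 45 higher and 1 lower (median -0.30), but 20 of the 45 were below vehicle in every dosed library, against 17.0% of all tested genes. KIF20A, a kinesin of cytokinesis, had 315, 186 and 223 CPM, against 463, 468 and 456 CPM in vehicle, and fell by 0.94 ± 0.24. PTTG1, the securin, and CKS2, a small cyclin kinase partner, were the 2 called higher, by 1.68 ± 0.38 and 1.87 ± 0.49. p53 targets had 3 of 21 higher and 0 lower (median 0.45): TP53I3, FAS and PMAIP1, at 1.18 ± 0.27, 1.16 ± 0.29 and 0.93 ± 0.25. In every dosed library 7 of the 21 were above vehicle, against 16.9% of all tested genes, and 0 below. The BCL2 family and death receptors had 2 of 21 higher, FAS and PMAIP1, and 0 lower (median -0.15). Of these 21, 8 were above vehicle in every dosed library and 3 below. With the span trend removed, 1 p53 target, 1 gene of the BCL2 list and 0 mitosis genes were called higher. Interferon-stimulated genes had 2 of 19 higher (median 0.08). Of the 19, 6 were above vehicle in every dosed library, against 16.9% of all tested genes, and 1 was below. Whether the list differs from other genes was not tested. ISG15, a ubiquitin-like modifier, had 61.6, 151 and 110 CPM, against 22.8, 37.9 and 16.2 CPM in vehicle. The histone list had 3 of 10 higher: HIST1H1C, HIST1H2BD and HIST1H2BK, at 2.17 ± 0.44, 1.96 ± 0.43 and 1.60 ± 0.39.

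As a list, genes of the integrated stress response were above vehicle at 24 h and near or below it after recovery. The effect of 50 µM PFOS after recovery was set against its effect directly after 24 h, each relative to vehicle of the same time, in 1 fit of 12 libraries and 9504 genes. The difference was called positive for 631 genes (6.64%) and negative for 385 (4.05%). Integrated stress response genes had a negative difference for 19 of 27 genes and a positive one for 0. Their median log2 change was 1.502 after 24 h and -0.42 after recovery in this fit. TRIB3, a pseudokinase induced by ATF4 (chromosome 20: 380760-397559), had 89.0, 33.4 and 82.4 CPM after recovery, against 66.1, 53.1 and 80.9 CPM in vehicle, and the groups overlapped. With the ribosomal share as a covariate it was called higher (1.44; edgeR adjusted p = 0.0487), the only named gene that gained a call there. At 24 h it averaged 839 ± 88.4 CPM with 50 µM PFOS and 54.9 ± 9.78 CPM with vehicle (SD, n = 3 each), and the difference between the effects was -3.89 ± 0.40 (SE; edgeR adjusted p = 0.000132). DDIT3, which encodes CHOP, was the exception by call: it had 86.7, 221 and 147 CPM after recovery, against 36.5, 51.8 and 40.9 CPM in vehicle, and rose by 1.81 ± 0.34. Its difference from the 24 h effect, -0.66 ± 0.38, was not called.

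**Figure D5:**
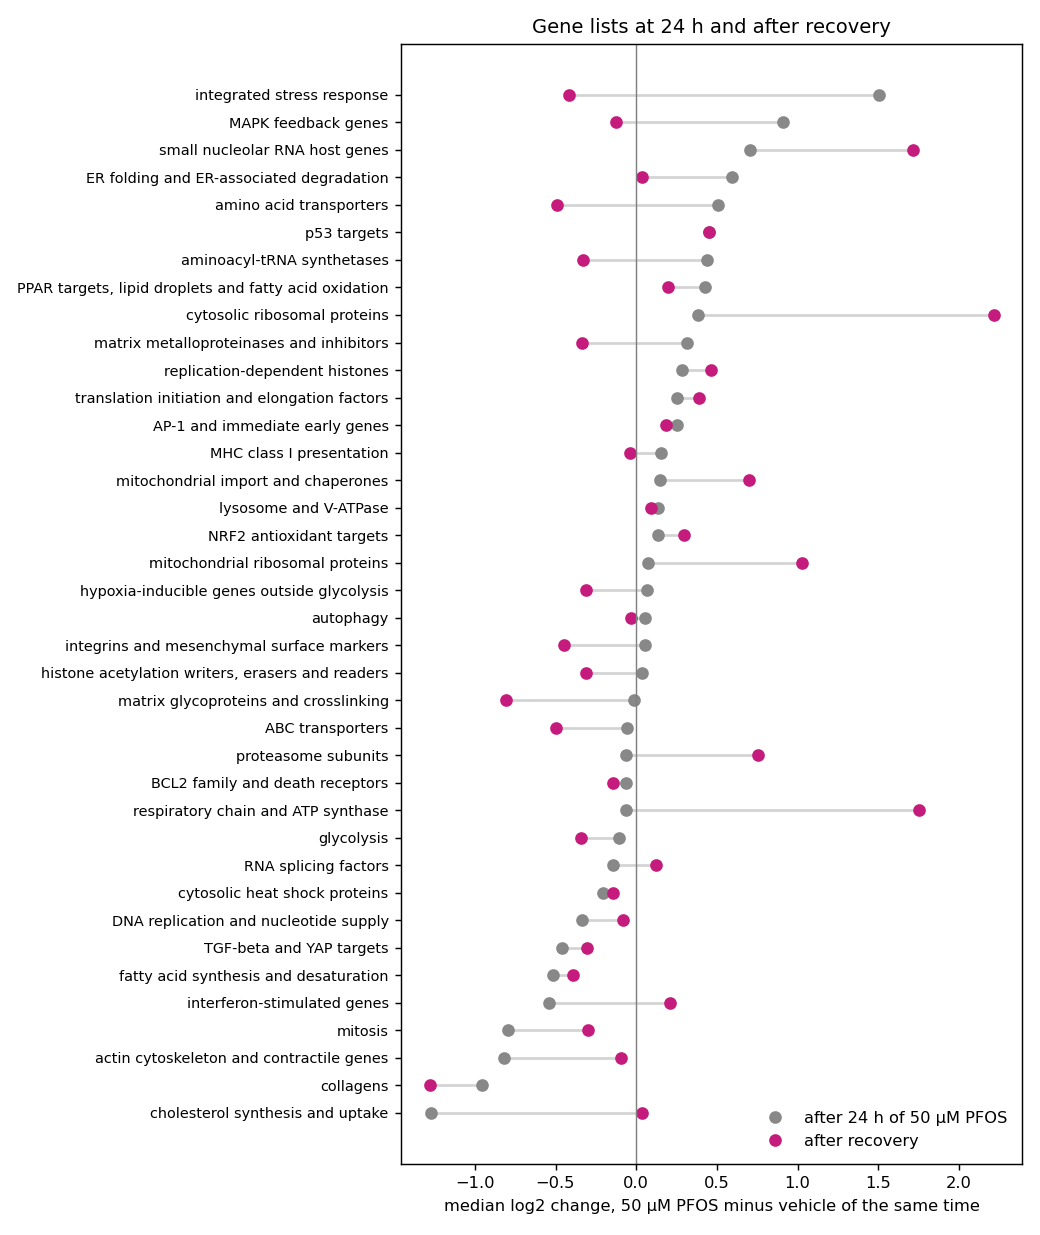
Median log2 change of 50 µM PFOS against vehicle of the same time for each gene list, directly after 24 h (grey) and after recovery (magenta), joined by a line. The integrated stress response lies at 1.502 and then -0.42, cholesterol synthesis at -1.27 and then near 0, collagens below 0 at both times, and ribosomal and respiratory chain genes move right after recovery.

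Other lists also differed between the times, and their medians after recovery were not all near vehicle. Cholesterol synthesis genes had a median of -1.27 after 24 h and 0.04 after recovery, with a positive difference for 17 of 25 genes and a negative one for 0. Aminoacyl-tRNA synthetases, which charge tRNAs with amino acids, had a negative difference for 11 of 20 genes. Their median was 0.44 after 24 h and -0.33 after recovery. After recovery 0 of the 20 were called higher and 0 lower. By then 11 of 20 were below vehicle in every dosed library, against 17.0% of all tested genes, and 1 was above it. IARS, for isoleucine, averaged 485 ± 50.1 CPM after recovery, against 720 ± 62.4 CPM in vehicle (SD, n = 3 each), and was not called. ER folding genes had a negative difference for 11 of 31 and a positive one for 1, and actin genes a positive one for 15 of 37. PTX3, a secreted pattern-recognition protein, had 20.5, 29.99 and 12 CPM after recovery, against 11.4, 11.6 and 10.3 CPM in vehicle, while at 24 h it averaged 230 ± 28.8 and 10.4 ± 4.48 CPM. ABCA1, a cholesterol exporter, had 29.7, 13.7 and 22.6 CPM after recovery, against 31.1, 24.2 and 28.3 CPM in vehicle.

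Some genes called after recovery had log2 changes of the same sign at 24 h. No p-value is given here for the 24 h effect alone. MT2A, NQO1, COL4A1 and SPARC had log2 changes of 2.68, 1.33, -2.08 and -1.12 at 24 h. For MT2A, NQO1 and MT1E the recovery effect minus the 24 h effect gave differences of 0.73 ± 0.52, 0.62 ± 0.25 and -0.25 ± 0.90, none of them called, and COL4A1 and SPARC of -0.01 ± 0.37 and -0.11 ± 0.22. A difference that was not called does not show that the effects were equal. By contrast, 59 of 78 ribosomal protein genes and 46 of 81 respiratory chain genes had a positive difference and 0 a negative one, and their medians at 24 h were 0.38 and -0.07. The number of called differences was between 195 (without vehicle library 3 of 24 h) and 2670 (without dosed library 1 of recovery) when libraries were left out in turn. It was lower than 1016 by more than 1.5 times without vehicle library 2 of 24 h (288), without dosed libraries 1, 2 or 3 of 24 h (258, 553 and 248), without vehicle libraries 1 or 3 of recovery (275 and 542) and without dosed library 3 of recovery (532).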

How the data were processed

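RNA-seq of HMC3 cells was analysed; the H3K27ac CUT&Tag samples were not used here. Paired-end libraries came from poly(A) RNA of TRIzol extracts by Smart-seq2, per the labels' protocols, which amplifies full-length cDNA without molecular identifiers or strand information. The authors deposited raw counts by gene symbol, not normalized, as the file headers show. The submitters' processing notes name Trimmomatic, STAR and DESeq2 and the builds GRCh38 and hg38. Not given in the sources used here are versions, counting tool and annotation. Thus, reads from overlapping, antisense or near-identical genes cannot be told apart, ribosomal protein and metallothionein genes included. Of 25344 symbols 88.5% matched a symbol and 6.72% a synonym of NCBI RefSeq on GRCh38.p14, which supplied positions, spans and promoter windows.

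Counts were tested with edgeR 4.0.16 in R 4.3.3. TMM factors came from all 18 RNA-seq libraries, filterByExpr used its minimum count of 10, and a quasi-likelihood model was fitted to the 6 recovery libraries, since the dosed group varied more than others; 12 libraries entered the comparison between times. Tests are two-sided, with Benjamini-Hochberg adjustment over the genes tested and a threshold of 0.05. Log2 CPM used a prior count of 2, and CPM used scaled library sizes. Per-library differences are from the mean log2 CPM of the vehicle libraries. PCR duplicates make counts other than independent molecules. Alternatives used limma 3.58.1 and DESeq2 1.42.0. The fit was tested on simulated data.

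Named genes were the 12 largest changes in each direction among calls that averaged 5 CPM or more in a group and had no overlap between groups (clone-based, locus, antisense and pseudogene-like names left out), up to 4 genes of each of 42 functional and 6 marker lists (the 4 called genes of lowest p, or 2 where none was called), the 6 genes with the widest range (at least 20 CPM on average in the dosed libraries) and the 6 called genes with the narrowest range among dosed libraries, and the 5 largest differences between times in each direction; not all are described. Members of lists given beside the pyrimidine pattern were named for that pattern. Comparison, lists and rules were chosen with earlier results of these data known.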

Additional observations from a re-analysis of the deposited data

Results flagged for a closer look

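The effect of 50 µM PFOS after recovery differed from its effect at 24 h, by the interaction test in edgeR, most for the following genes. The value given is the log2 difference between the effects, recovery minus 24 h. Positive differences were 6.69 for DCDC2 (adjusted p = 0.00512), 4.18 for ZBED2 (adjusted p = 0.000865), 4.10 for GCHFR (adjusted p = 0.0147), 3.81 for FHDC1 (adjusted p = 0.0442) and 3.72 for MRPL33 (adjusted p = 0.0288). DCDC2 had no count in the 50 µM PFOS libraries at 24 h, so its fitted value depends on the prior count and is no bound. After recovery it had 9.13, 7.71 and 7.97 CPM, against 3.80, 8.41 and 8.53 CPM in vehicle. ZBED2 averaged 1.87 CPM with 50 µM PFOS and 27.7 CPM with vehicle at 24 h, and had 41.1, 24.0 and 23.9 CPM after recovery, against 23.5, 16.3 and 25.6 CPM in vehicle. MRPL33 rested on dosed library 2, with 13.7, 151 and 33.2 CPM, against 15.2, 15.8 and 13.9 CPM in vehicle.

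Negative differences were -4.71 for NDRG1 (adjusted p = 0.0209), -4.35 for the pseudogene RPLP0P2 (adjusted p = 0.00076), -3.89 for TRIB3 (adjusted p = 0.000132), -3.81 for the glycine transporter SLC6A9 (adjusted p = 0.000222) and -3.63 for TOX2 (adjusted p = 0.0195), all by edgeR. SLC6A9 averaged 77.0 CPM with 50 µM PFOS and 10.8 CPM with vehicle at 24 h. After recovery it had 13.7, 5.14 and 6.64 CPM, against 12.2, 20.2 and 17.1 CPM in vehicle. NDRG1 and TOX2 had at most 1.33 CPM in any dosed library after recovery and rest on few counts. RPLP0P2 averaged 122 CPM with 50 µM PFOS and 1.71 CPM with vehicle at 24 h, and had 6.85, 6.86 and 3.99 CPM after recovery, against 0.759, 1.84 and 2.70 CPM in vehicle.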

How the results depend on the processing

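The recovery comparison called 747 genes. The count was 1596 with no filter on low counts, 1126 with DESeq2, 2913 in a fit of all 18 libraries and 424 with the span trend removed. It was 37 with the ribosomal share as covariate, which was chosen after seeing the data, and 0 to 2441 when each library was left out in turn. With the replicate number as a block it was 1526 (1000 higher and 526 lower), although same-numbered dosed and vehicle libraries correlated at 0.39, 0.25 and -0.16 in their deviations from the group means and so were not taken as pairs. Dosed libraries 1 and 2 matched their own number best and library 3 did not. RLE factors (821), upper-quartile factors (726), a minimum count of 30 (621), voom with group weights (748) and thinned counts (548) stayed within 1.5 times. Higher genes were 86.7% of the calls, against 70.7% with no filter, 65.5% with the block and 56.1% with all 18 libraries. The difference between times, 1016 genes, had 1635 with no filter, 1876 with all 18 libraries, 608 with thinned counts, 622 with the covariate and 195 to 2670 with each library left out; the block gave 1208.

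With the ribosomal share as covariate the log2 change changed sign for 19 of the 109 called named genes, none called there: BOLA3 -0.29, PET100 -0.19, PSME2 -0.13, B2M -0.35, PTTG1 -0.22, CKS2 -0.58, RPA3 -0.28, RFC4 -0.067, HIST1H1C -0.19, HIST1H2BK -0.36, TOMM5 -0.10, HSPE1 -0.22, ZFAS1 -0.12, NPC2 -0.052, ATP6V0E1 -0.10, GABARAP -0.14, MYL12B -0.22, SNRPE -0.36 and SNRPD2 -0.32. Named genes that were not called after recovery also changed sign there. Among them were COL1A1 (0.40), VPS18 (0.86), PLBD2 (0.48) and MED16 (1.06), all lower without the covariate. The causes of these changes were not tested. The difference in ribosomal share, 3.62 percentage points, lay between 2.39 and 4.77 with each library left out. Depths of 755905 to 3982818 counts limit genes of a few CPM, where 1 count in the shallowest library is more than 1 CPM. The check against protein length was not run, because no protein table was used here.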

Other observations

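Single genes outside the matrix and ribosome groups were also called after recovery. Lysosome and V-ATPase genes had 4 of 41 called higher and 0 lower (median 0.09), against 7.24% of all tested genes called higher. They were ATP6V1F, a subunit of the proton pump (116, 317 and 197 CPM in the 50 µM PFOS libraries, against 46.3, 59.7 and 31.4 CPM in vehicle), the pump subunit ATP6V0E1, the cholesterol carrier NPC2 and the galactosidase GLA. Autophagy genes had 2 of 31 called higher, no larger a share than among all tested genes: GABARAP and GABARAPL2, small ubiquitin-like proteins of the autophagosome, at 1.12 ± 0.28 and 1.32 ± 0.31 on the log2 scale (SE; edgeR adjusted p = 0.0426 and 0.0339). Neither list is shown to differ from other genes, and both autophagy calls were lost with the span trend removed. B2M, the light chain of MHC class I, had 575, 1979 and 1101 CPM, against 347, 479 and 451 CPM in vehicle. These calls were lost, as the others, without vehicle library 1, 2 or 3 or dosed library 3.

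Of 19 fatty acid synthesis genes, 7 were below vehicle in every dosed library (median -0.39), against 17.0% of all tested genes. SCD, the desaturase that makes oleate, had 3986, 1929 and 3077 CPM, against 5128, 5999 and 5173 CPM in vehicle (-0.86 ± 0.28; edgeR adjusted p = 0.0866). Genes with a narrow range among the dosed libraries included ATP2A2, the calcium pump of the endoplasmic reticulum, at 29.7, 29.99 and 26.6 CPM, against 55.4, 52.1 and 53.5 CPM in vehicle, and MTFP1, a mitochondrial fission protein, at 35.4, 30.8 and 31.9 CPM, against 16.7, 17.4 and 11.2 CPM in vehicle.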
